A study of Arabidopsis thaliana with 9 samples.

Results

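The gibberellin pathway was followed through 9 of its genes in single-nucleus RNA-seq of the Arabidopsis hypocotyl. The genes were taken by name and not by any measured value: the synthesis genes GA20OX1 (AT4G25420), GA20OX2 (AT5G51810), GA3OX1 (AT1G15550) and GA3OX2 (AT1G80340), the receptor genes GID1A (AT3G05120), GID1B (AT3G63010) and GID1C (AT5G27320), and the DELLA repressor genes RGA (AT2G01570) and GAI (AT1G14920). These are 9 of the 38115 genes listed for the 4-week libraries and 9 of the 36957 listed for the WT and d14 libraries. A further 38 genes of the pathway, from early synthesis to gibberellin-responsive targets, served for comparison. In the hypocotyl, which joins the shoot to the root, a ring of stem cells called the cambium makes wood (xylem) inwards and bast (phloem) outwards.

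The VASA cambium group was 3 plates of nuclei sorted for fluorescence of a PXY:H4-GFP and/or a SMXL5:H2B-RFP reporter, which mark the xylem-facing and the phloem-facing side of the cambium. The VASA all hypocotyl group was 3 plates of nuclei of the same reporter line, sorted without that gate. VASA-seq is a plate-based method that reads total RNA. The droplet-based 10x all hypocotyl library, which counts 3′ ends, came from the same line, and all 7 of these libraries were from Col-0 plants of 4 weeks. The droplet libraries d14 and WT, 1 each, were from plants of 19 days, the first carrying the d14-1 insertion in D14, the gene of the strigolactone receptor. All plants grew in 10 h of light and 14 h of darkness. The 3 plates of a gate came from 1 preparation of pooled plants, so the gate and the preparation cannot be told apart, and p-values between gates measure the spread between plates only. The D14 transcript gave 31 counts (14.9 CPM, counts scaled to the total of the passing nuclei) in the library labelled d14 and 26 counts (15.3 CPM) in the library labelled WT, and a count over an insertion line's gene does not check the label.

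Gibberellins are diterpenoid hormones that promote elongation and, in the hypocotyl, wood formation. GA 20-oxidases make the precursors and GA 3-oxidases carry out the last step to the bioactive hormone. The hormone binds a GID1 receptor in the nucleus, the complex takes hold of a DELLA protein through its DELLA motif, and an F-box protein such as SLY1 then has the DELLA protein degraded, which frees the growth-promoting factors that it held back. The abundance of DELLA proteins is therefore set largely after transcription, and transcript counts do not report it.

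The stretch through which GID1 takes hold of a DELLA protein is shown for both DELLA genes, because the 2 genes are close in sequence, on which the split of reads between them depends. Each line holds 75 coding bases 5′ to 3′ on the coding strand (RefSeq, TAIR10.1), with the 15 bases of the DELLA motif in capitals.
RGA: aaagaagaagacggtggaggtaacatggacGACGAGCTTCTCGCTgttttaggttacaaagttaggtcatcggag
GAI: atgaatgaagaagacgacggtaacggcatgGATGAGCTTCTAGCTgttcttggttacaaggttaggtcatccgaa
The RGA stretch lies at chr2:257171-257245 on the minus strand and the GAI stretch at chr1:5149465-5149539 on the plus strand, each in the only exon of its gene. The motif is at residues 44 to 48 of 587 in RGA and at residues 28 to 32 of 533 in GAI. The stretches differ at 22 of the 75 bases, and at 2 of the 15 motif bases. Over their whole coding sequences RGA and GAI were 82.6% identical, and their longest shared run was 30 bases. The closest pair of receptors, GID1A and GID1C, shared a run of 35 bases and 84.2% of aligned bases, GA20OX1 and GA20OX2 a run of 29 bases and 79.4%, and GA3OX1 and GA3OX2 a run of 21 bases and 76.6%. In TAIR10.1 the GA 20-oxidase genes lie at chr4:12990851-12992585 (GA20OX1) and chr5:21055179-21056881 (GA20OX2), each with 3 exons, and the GA 3-oxidase genes at chr1:5344388-5346342 (GA3OX1) and chr1:30200466-30202349 (GA3OX2), each with 2 exons, all on the minus strand. The receptor genes lie on the plus strand with 2 exons each, at chr3:1430363-1432844 (GID1A), chr3:23289243-23291486 (GID1B) and chr5:9628990-9631291 (GID1C). RGA spans chr2:255247-257568 and GAI chr1:5148982-5151415. None of the 9 genes overlapped another annotated gene.

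The VASA cambium plates held 313, 277 and 292 passing nuclei and the VASA all hypocotyl plates 293, 232 and 181, with medians of 4086 to 6059 counts per nucleus. Passing nuclei held 1148888 to 1822306 counts per plate, and all wells of a plate 1710013 to 2445623. The 10x all hypocotyl library held 2081 passing nuclei with a median of 1852 counts, the d14 library 822 with 2023, and the WT library 684 with 2029.5. In the 36 wells that had received no nucleus, 5 of 10057 counts fell on the 9 genes. In droplets of at most 100 counts, which hold free RNA, GA3OX1 stood at 62.6 CPM in the 10x all hypocotyl library, 57.4 CPM in d14 and 54.3 CPM in WT, GID1A at 57.3 to 65.3 CPM and RGA at 44.7 to 57.9 CPM. These levels are close to or above those of GA3OX1 and RGA in d14 and WT nuclei, so low droplet levels of these genes were not told apart from free RNA. The intervals of single libraries cover counting error only.

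RGA was the most abundant of the 9 genes per kb of gene span on the VASA plates, at 62.6 ± 6.01 CPM per kb on cambium plates and 57.7 ± 10.2 CPM per kb on all hypocotyl plates (SD, n = 3 each). GA3OX1 was second on the all hypocotyl plates at 41.6 ± 18.6 CPM per kb, where its plates overlapped those of RGA, and stood at 16.7 ± 6.44 CPM per kb on the cambium plates, below every plate of RGA. GID1A and GAI followed, at 13.0 ± 1.17 and 12.6 ± 1.03 CPM per kb on cambium plates, and did not differ beyond their spread. GID1C was lower than both there, at 10.7 ± 0.54 CPM per kb. On all hypocotyl plates the 3 genes stood at 12.1 to 15.0 CPM per kb and did not differ beyond their spread. GID1B came next, with 5.98 ± 1.88 CPM per kb on cambium plates and 7.0 ± 3.05 on all hypocotyl plates. The GA 20-oxidases and GA3OX2 were the lowest, GA20OX1 with 1.39 ± 0.16 CPM per kb on cambium plates and 5.57 ± 4.69 on all hypocotyl plates, GA20OX2 with 0.98 ± 0.64 and 0.80 ± 1.11, and GA3OX2 with 0.97 ± 0.59 and 0.40 ± 0.38.

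**Figure D1:**
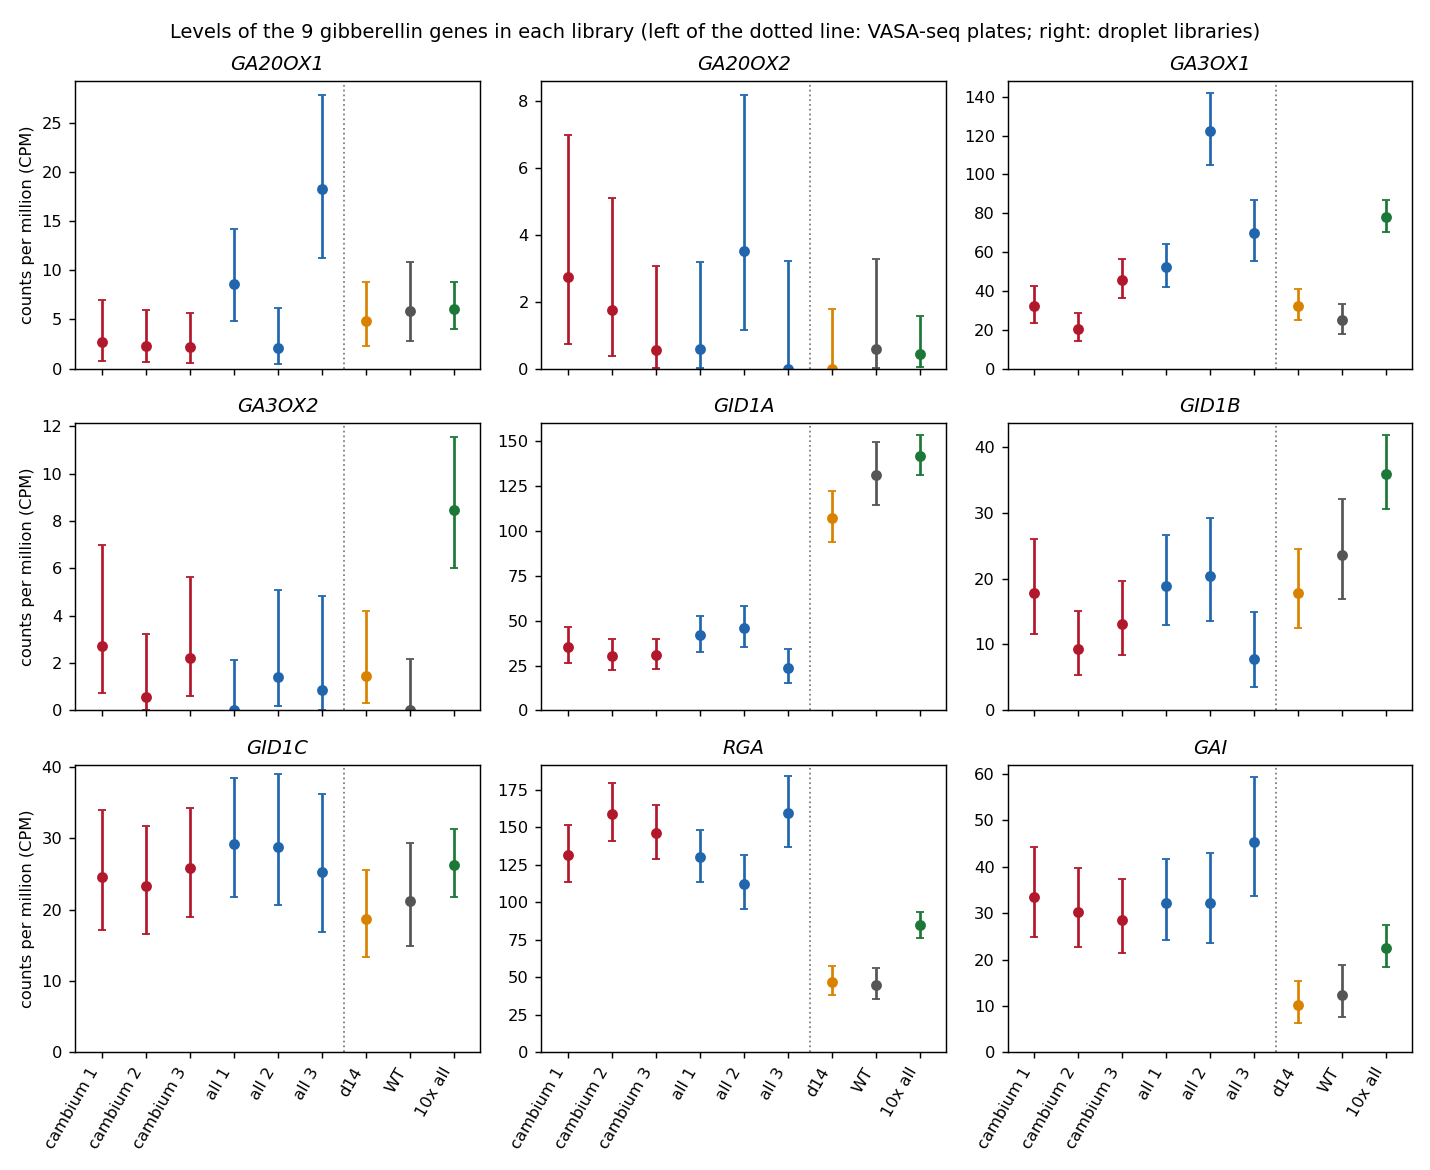
CPM of each of the 9 genes (y axes, each from 0) in the 6 VASA-seq plates and, right of the dotted line, the 3 droplet libraries (x axes), with 95% Poisson intervals. GA3OX1 was at 20.4 to 45.5 CPM on the cambium plates and at 52.1 to 122 CPM on the all hypocotyl plates, whereas the plates of GID1A, GID1B, RGA and GAI overlapped. CPM of the 2 methods are not comparable with each other.

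Among the synthesis genes, GA3OX1, the main GA 3-oxidase of vegetative tissue, gave 32.1, 20.4 and 45.5 CPM on the cambium plates (47, 35 and 83 counts), against 52.1, 122 and 69.6 CPM on the all hypocotyl plates (91, 174 and 80 counts). The groups did not overlap, and all hypocotyl plate 2 was the highest. GA20OX1 gave 4 counts on each cambium plate (2.73, 2.33 and 2.20 CPM), against 15, 3 and 21 counts on the all hypocotyl plates (8.6, 2.11 and 18.3 CPM), so that all hypocotyl plate 2 lay below the cambium plates and the groups overlapped. GA20OX2 gave 4, 3 and 1 counts on cambium plates and 1, 5 and 0 on all hypocotyl plates. GA3OX2 gave 4, 1 and 4 counts on cambium plates and 0, 2 and 1 on all hypocotyl plates, and 39 counts (8.46 CPM) in the 10x all hypocotyl library. For these last 2 genes no difference was detectable at this depth on the plates.

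GA3OX1 transcripts came in larger numbers per positive nucleus than those of the receptors and of RGA. Over the 1588 nuclei of the 6 plates, 510 GA3OX1 counts lay in 146 nuclei, a mean of 3.49 counts per nucleus with a count and a maximum of 24. RGA, with 1301 counts, was found in 692 nuclei at 1.88 counts each and a maximum of 9, and GID1A had 325 counts in 242 nuclei at 1.34 counts each. The 5 highest nuclei of a plate held 61.7% to 73.5% of its GA3OX1 counts on cambium plates and 40.7% to 52.9% on all hypocotyl plates. For RGA they held 11.7% to 14.6% on cambium plates and 12.3% to 16.4% on all hypocotyl plates. For GID1B, with 137 counts in 108 nuclei, they held 34.6% to 56.3% on cambium plates and 30.3% to 55.6% on all hypocotyl plates, which overlaps GA3OX1 on the all hypocotyl plates. The same GA3OX1 counts can be given as a share of nuclei, which is not separate evidence from the CPM. A GA3OX1 count was present in 5.11%, 4.69% and 7.53% of the nuclei of the cambium plates, against 10.6%, 14.7% and 16.6% of those of the all hypocotyl plates. With every nucleus thinned to 1200 counts the expected shares were 2.71%, 1.71% and 2.84%, against 5.38%, 6.82% and 5.83%, again without overlap. How many of all genes have shares of nuclei without overlap was not computed.

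**Figure D2:**
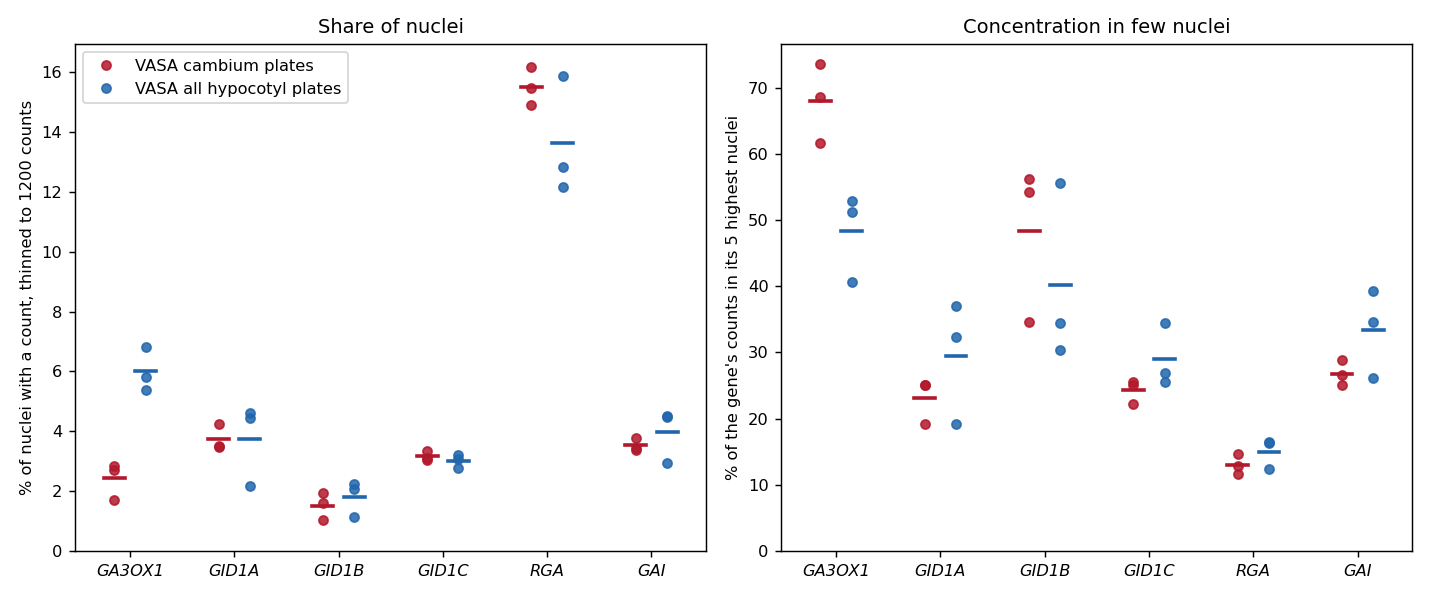
Left, expected percentage of nuclei with at least 1 count after thinning each nucleus to 1200 counts. Right, percentage of a gene's counts on a plate that lay in its 5 highest nuclei. Points are plates, bars the means of 3 plates, for the 6 of the 9 genes with enough counts to be tested between gates. GA3OX1 is the gene of which the thinned shares of cambium plates (1.71% to 2.84%) lie well below those of all hypocotyl plates (5.38% to 6.82%).

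The receptor genes differed little between the gates. GID1A gave 35.5, 30.3 and 30.7 CPM on the cambium plates, against 41.8, 45.6 and 23.5 CPM on the all hypocotyl plates. GID1B, the receptor that differs most from the other two in sequence, gave 17.8, 9.32 and 13.2 CPM on the cambium plates, against 18.9, 20.4 and 7.83 CPM on the all hypocotyl plates. For both, all hypocotyl plate 3 was the lowest of the 6 plates and the groups overlapped. GID1C gave 24.6, 23.3 and 25.8 CPM on the cambium plates, against 29.2, 28.8 and 25.2 CPM on the all hypocotyl plates, a narrow spread for its level. In the droplet libraries, which read the 3′ end, GID1A was the highest of the 9 genes in raw CPM, at 142 CPM in the 10x all hypocotyl library, 107 CPM in d14 and 131 CPM in WT.

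Of the DELLA genes, RGA gave 131, 159 and 146 CPM on the cambium plates, against 130, 112 and 159 CPM on the all hypocotyl plates, and was found in 37.7% to 49.0% of cambium plate nuclei and 38.8% to 50.3% of all hypocotyl plate nuclei. GAI gave 33.5, 30.3 and 28.5 CPM on the cambium plates, against 32.1, 32.3 and 45.3 CPM on the all hypocotyl plates. Both genes overlapped between the gates. Per kb, RGA exceeded GAI on each plate, and a further DELLA gene, RGL1, stood at 26.8 ± 3.43 CPM per kb on cambium plates and 16.4 ± 2.81 on all hypocotyl plates, against 12.6 ± 1.03 on cambium plates and 15.0 ± 3.1 on all hypocotyl plates for GAI (SD, n = 3 each). RGL1 thus lay between RGA and GAI on cambium plates, and did not differ from GAI beyond the spread on all hypocotyl plates.

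The comparison of the gates asked whether nuclei sorted by the cambium gate differ from nuclei of the whole organ in this pathway. With edgeR's quasi-likelihood test over the 6 plates, 505 of 16134 genes were called at an adjusted p under 0.05 (3.13%), of which 220 were higher (1.36%) and 285 lower (1.77%) on the cambium plates. Of the 9 genes, 6 had enough counts to be tested and 0 were called, with a median log2 fold change of -0.22 against -0.004 over all genes tested. GA3OX1 came nearest, with a log2 fold change of -1.29 (SE 0.32, 95% interval -2.0 to -0.57), an unadjusted p of 0.00237 and an edgeR adjusted p of 0.0640. It was below 0.05 in 4 of 13 settings, namely DESeq2 (adjusted p = 0.0122), edgeR with no filter (7.99e-09), with all wells (0.0491) and without all hypocotyl plate 1 (0.0454), with adjusted p up to 0.203 elsewhere, and its log2 fold change ranged from -1.62 to -0.90. At the plate number used here the test recovered 55.7% of simulated 2-fold changes and 99% of 4-fold changes. The simulation gave every gene the same dispersion, so these shares need not hold for GA3OX1. Its plates varied widely, with 32.7 ± 12.6 CPM on cambium plates and 81.3 ± 36.4 CPM on all hypocotyl plates (SD, n = 3 each).

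The other tested genes lay within a log2 fold change of 0.26 of 0 between the gates. The receptors had edgeR log2 fold changes of -0.21 for GID1A (95% interval -0.69 to 0.27), -0.26 for GID1B (-1.04 to 0.53) and -0.17 for GID1C (-0.58 to 0.24), with edgeR adjusted p of 0.750, 0.829 and 0.765. RGA had 0.13 (-0.25 to 0.51, adjusted p = 0.823) and GAI -0.23 (-0.68 to 0.22, adjusted p = 0.702). After TMM scaling, 2 of the 6 tested genes had cambium plates all below the all hypocotyl plates, GA3OX1 and GID1C. Of all genes tested, 19.5% had no overlap between gates, 9.54% with higher and 9.95% with lower cambium plates.

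Of the other 38 pathway genes, 15 were tested and 0 were called. RGL1, a DELLA gene, gave 47.8 to 61.5 CPM on cambium plates and 29.6 to 40.7 CPM on all hypocotyl plates without overlap, a log2 fold change of 0.73 (SE 0.18) with an edgeR adjusted p of 0.0547, and passed 0.05 in 2 of 13 settings. IDD1, the gene of a DELLA-binding zinc finger protein, gave 75.7 to 77.9 CPM on cambium plates and 78.3 to 92.0 CPM on all hypocotyl plates, also without overlap, and was named after its values were seen. All 5 early synthesis genes were tested, of which the ent-kaurenoic acid oxidase gene KAO1 was the highest on cambium plates at 15.1 ± 1.45 CPM per kb, against 12.9 ± 0.94 on all hypocotyl plates, where KAO2 was the highest at 13.9 ± 1.36, against 12.4 ± 2.61 on cambium plates. Another of the 5, KO, stood at 14.6 ± 1.07 on cambium plates and 13.2 ± 2.03 on all hypocotyl plates, so the top ranks lay within the spread. Of the 5 late synthesis genes 0 were tested, the highest being GA3OX3 with 4 counts on cambium plates and 2 on all hypocotyl plates, and of 11 inactivation genes 1 was tested, the GA 2-oxidase gene GA2OX6 at 7.48 ± 2.68 CPM per kb on cambium plates and 9.79 ± 3.01 on all hypocotyl plates (SD, n = 3 each). In the other roles the highest, on cambium plates and then all hypocotyl plates, were the F-box gene SLY1 (12.3 and 11.1 CPM per kb), SEC, whose product glycosylates DELLA proteins (32.3 and 32.8), the DELLA partner IDD2 (43.1 and 44.6) and the transporter gene NPF3.1 (13.2 and 16.8). The responsive genes were low, and their top ranks lay within the spread. On cambium plates GASA1 was the highest at 2.16 ± 1.33 CPM per kb, beside GASA6 at 2.14 ± 2.86, with GASA4 at 1.24. On all hypocotyl plates GASA4 was the highest at 5.20 ± 4.53 CPM per kb, beside GASA1 at 5.08 and GASA6 at 5.07 (SD, n = 3 each).

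**Figure D3:**
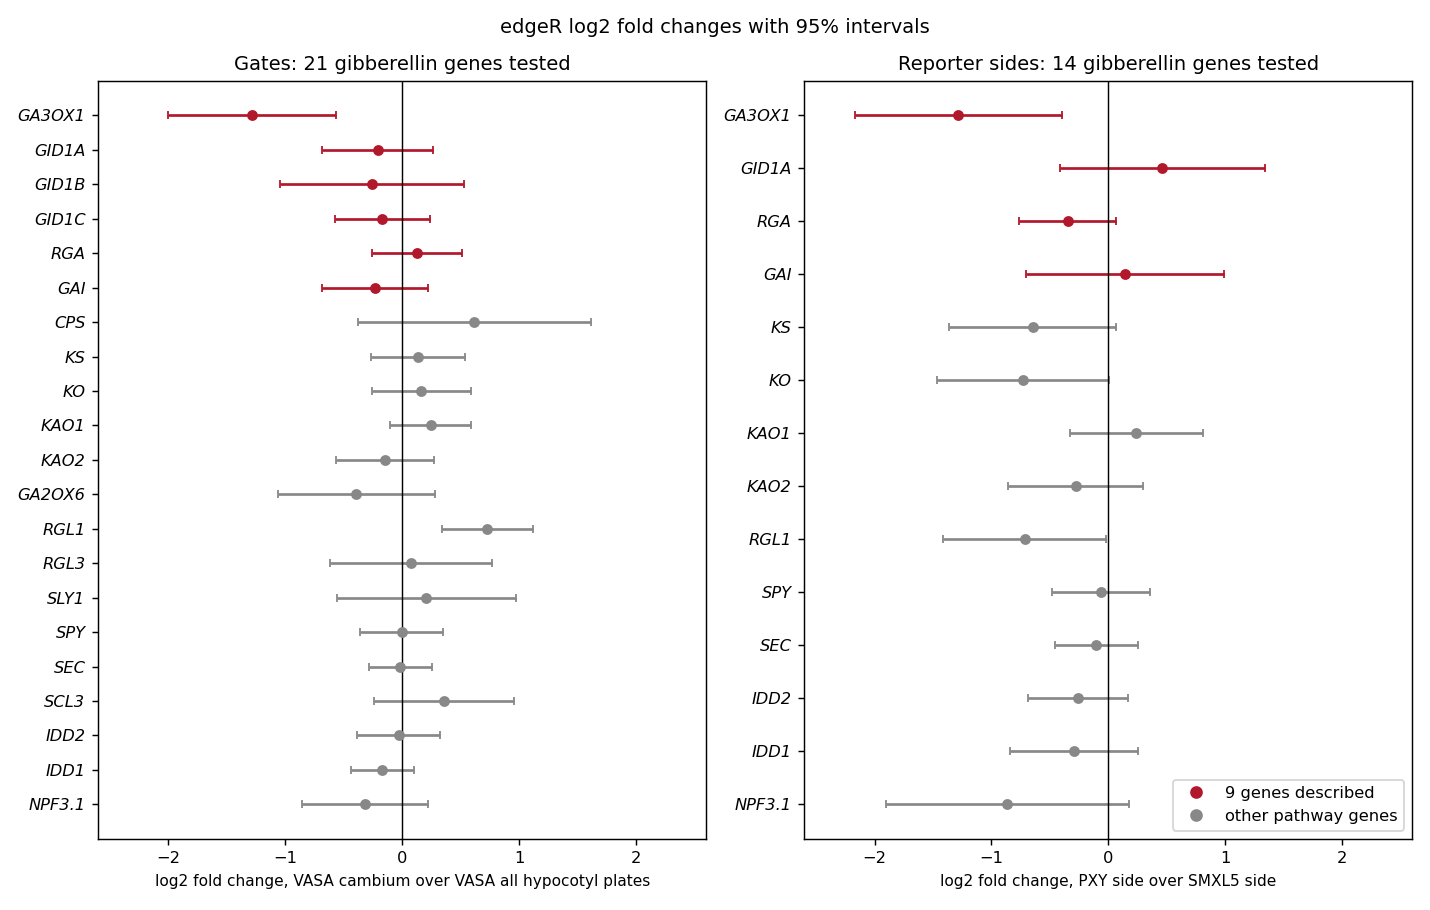
edgeR log2 fold changes with 95% intervals (x axes) of the gibberellin genes with enough counts (y axes), between gates on the left (VASA cambium over VASA all hypocotyl, n = 3 plates each) and between reporter sides on the right (PXY side over SMXL5 side, 6 plates). Red marks the genes described, grey the other pathway genes. GA3OX1 lies at -1.29 and -1.28 with intervals below 0, and 0 genes passed after adjustment over all genes.

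Cambium-like nuclei were 5.22% of passing nuclei on cambium plates and 5.95% on all hypocotyl plates. The summed cambium markers did not separate the gates, at 2327 to 2747 CPM on cambium plates and 2442 to 2932 CPM on all hypocotyl plates, whereas markers of some other cell types did. The summed periderm markers stood at 44.9 to 123 CPM on cambium plates and 213 to 352 CPM on all hypocotyl plates, the cortex markers at 3195 to 3488 CPM on cambium plates and 4071 to 4698 CPM on all hypocotyl plates, and the epidermis markers at 374 to 395 CPM on cambium plates and 398 to 483 CPM on all hypocotyl plates, each without overlap. The companion cell markers, of the class in which GA3OX1 was highest, stood at 306 to 528 CPM on cambium plates and 444 to 733 CPM on all hypocotyl plates and overlapped. The part of these markers in the GA3OX1 value was not tested, and the values by cluster below are a description. In sums over a plate, fewer nuclei of a type and less RNA per nucleus cannot be told apart. When the clusters of nuclei were held at the mix of the all hypocotyl plates, an alternative chosen after seeing the data, the pooled GA3OX1 ratio of cambium to all hypocotyl plates was 0.425, against 0.413 as measured. GA3OX1 was lower on cambium plates in 14 of 18 clusters, some of them on few counts. Of the other genes tested between gates, GAI was lower in 12 of 18, GID1A in 10, GID1B in 9, RGA in 8 and GID1C in 7. The share over all genes was not computed, and clusters of the same plates are not replicates. In cluster 6 GA3OX1 had 1 count on cambium plates and 3 on all hypocotyl plates. In cluster 1, led by chloroplast genes, it was at 15.0 CPM on cambium plates and 189 CPM on all hypocotyl plates, and in cluster 4, led by GSL04 and TET5, at 86.7 CPM on cambium plates and 299 CPM on all hypocotyl plates. In companion cell-like nuclei it was at 306 CPM (95% interval 230 to 401) on cambium plates and 357 CPM (279 to 449) on all hypocotyl plates, and these intervals overlapped.

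Nuclei were next divided by the reporter transcripts, which the rule for choosing the genes did not use. The PXY side held 213 nuclei with a count of H4GFP alone and the SMXL5 side 228 with a count of H2BRFP alone, while 80 had both and 1067 neither. On the cambium plates 228 of 313, 177 of 277 and 185 of 292 passing nuclei had neither. On the all hypocotyl plates 202 of 293, 158 of 232 and 117 of 181 had neither, so these shares overlapped between the gates. With the plate as a block, edgeR called 389 of 8406 genes (4.63%), of which 209 were higher (2.49%) and 180 lower (2.14%) on the PXY side. Of the 9 genes 4 were tested and 0 were called. GA3OX1 had the largest difference among them, a log2 fold change of -1.28 (SE 0.42, 95% interval -2.17 to -0.40, edgeR adjusted p = 0.10), and passed 0.05 in 1 of 12 settings, without all hypocotyl plate 3 (log2 fold change -1.81, edgeR adjusted p = 0.0202). Without all hypocotyl plate 2 it was -0.65 (edgeR adjusted p = 0.731).

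The GA3OX1 counts behind that value were few and unevenly held. The PXY side gave 0, 2 and 4 counts on the cambium plates and 1, 26 and 11 on the all hypocotyl plates, against 1, 11 and 6 counts on the cambium plates and 2, 58 and 11 on the all hypocotyl plates for the SMXL5 side. In CPM the PXY side was lower on 4 of 6 plates. All hypocotyl plate 2 thus held most of the counts of both sides. There, 1 nucleus carried 20 of the 26 PXY side counts, and 1 nucleus carried 21 of the 58 SMXL5 side counts. Over the 6 plates a GA3OX1 count was present in 17 PXY side nuclei (7.98%) and 25 SMXL5 side nuclei (11%). RGA, which has counts on both sides of every plate, gave 94.1, 129 and 101 CPM on the cambium plates and 121, 86.6 and 171 CPM on the all hypocotyl plates on the PXY side, against 99.9, 117 and 187 CPM on the cambium plates and 184, 118 and 182 CPM on the all hypocotyl plates for the SMXL5 side. It was lower on the PXY side on 5 of 6 plates, by a log2 fold change of -0.35 (95% interval -0.76 to 0.06, edgeR adjusted p = 0.406).

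GID1A had a log2 fold change of 0.46 (95% interval -0.41 to 1.34, edgeR adjusted p = 0.642) and GAI of 0.14 (-0.71 to 0.99, adjusted p = 0.914) between PXY and SMXL5 sides. Of the other pathway genes 10 were tested and 0 called, and their median log2 fold change was -0.29, against 0.006 over all genes tested. The summed xylem parenchyma markers were higher on the PXY side on 6 of 6 plates (2288 to 3807 CPM, against 478 to 838 CPM on the SMXL5 side), and so were the cambium markers (3782 to 5245 CPM, against 1966 to 3074 CPM). Their part in the GA3OX1 value was not tested. In the edgeR test of whether the side difference itself changed between cambium and all hypocotyl plates, 0 of 8406 genes were called, with 355 at an unadjusted p under 0.05.

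By class of nuclei, GA3OX1 was highest in companion cell-like nuclei, which load sugars into the phloem, in both sets of 4-week nuclei, but not in d14 and WT nuclei. Classes were rebuilt from clusters whose variable genes left out the 9 genes and the pathway list, and values by class are a description without a test. In the 74 companion cell-like nuclei of the plates GA3OX1 stood at 333 CPM (125 counts, 95% Poisson interval 278 to 397) and in the 78 of the 10x all hypocotyl library at 514 CPM (72 counts, 402 to 647). A count was present in 35.1% of these nuclei on the plates and 21.8% in the 10x all hypocotyl library. In the 10x all hypocotyl library it was present in 0 of 76 vessel-like nuclei, a class that holds the dying water conduits, with an upper limit of 13.4 CPM from 3 counts, below the 62.6 CPM of free RNA. Developing phloem-like nuclei of the 10x all hypocotyl library stood at 213 CPM (88 counts, 171 to 262), xylem parenchyma-like nuclei at 45.2 CPM and cambium-like nuclei at 71.7 CPM. On the plates cambium-like nuclei had 14.3 CPM (8 counts) and cortex-like nuclei 5.38 CPM (3 counts). In the joint clusters of d14 and WT nuclei the cambium-like class was the highest at 127 CPM (29 counts, 85.2 to 183), above the 103 CPM of 27 companion cell-like nuclei (6 counts, 37.9 to 224), and these intervals overlapped.

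GA3OX1 was lower in the xylem classes (114 xylem parenchyma-like nuclei) than in the phloem classes (74 companion cell-like and 47 phloem parenchyma-like nuclei) on each of 6 plates. The xylem classes gave 0 to 71.2 CPM and the phloem classes 52.4 to 341 CPM, with a mean difference of -2.72 ± 1.29 (SD, n = 6) in log2(CPM + 5). The companion cell-like nuclei held 125 of the 130 GA3OX1 counts of the phloem classes, and phloem parenchyma-like nuclei, at 18.4 CPM (5 counts, 5.96 to 42.9), lay below the 34.3 CPM of the xylem classes (27 counts, 22.6 to 49.9) with overlapping intervals. RGA was also lower in the xylem classes on 6 of 6 plates, with 61.1 to 175 CPM against 156 to 340 CPM in the phloem classes and a mean difference of -1.13 ± 0.71. GID1A and GAI differed in either direction, by -0.08 ± 1.28 and -0.01 ± 1.73, and GID1C by -0.75 ± 0.87. Of the 9 genes 6 had a lower mean in the xylem classes, GID1A and GAI among them. The share over all genes was not computed for this count or for the counts of plates.

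**Figure D4:**
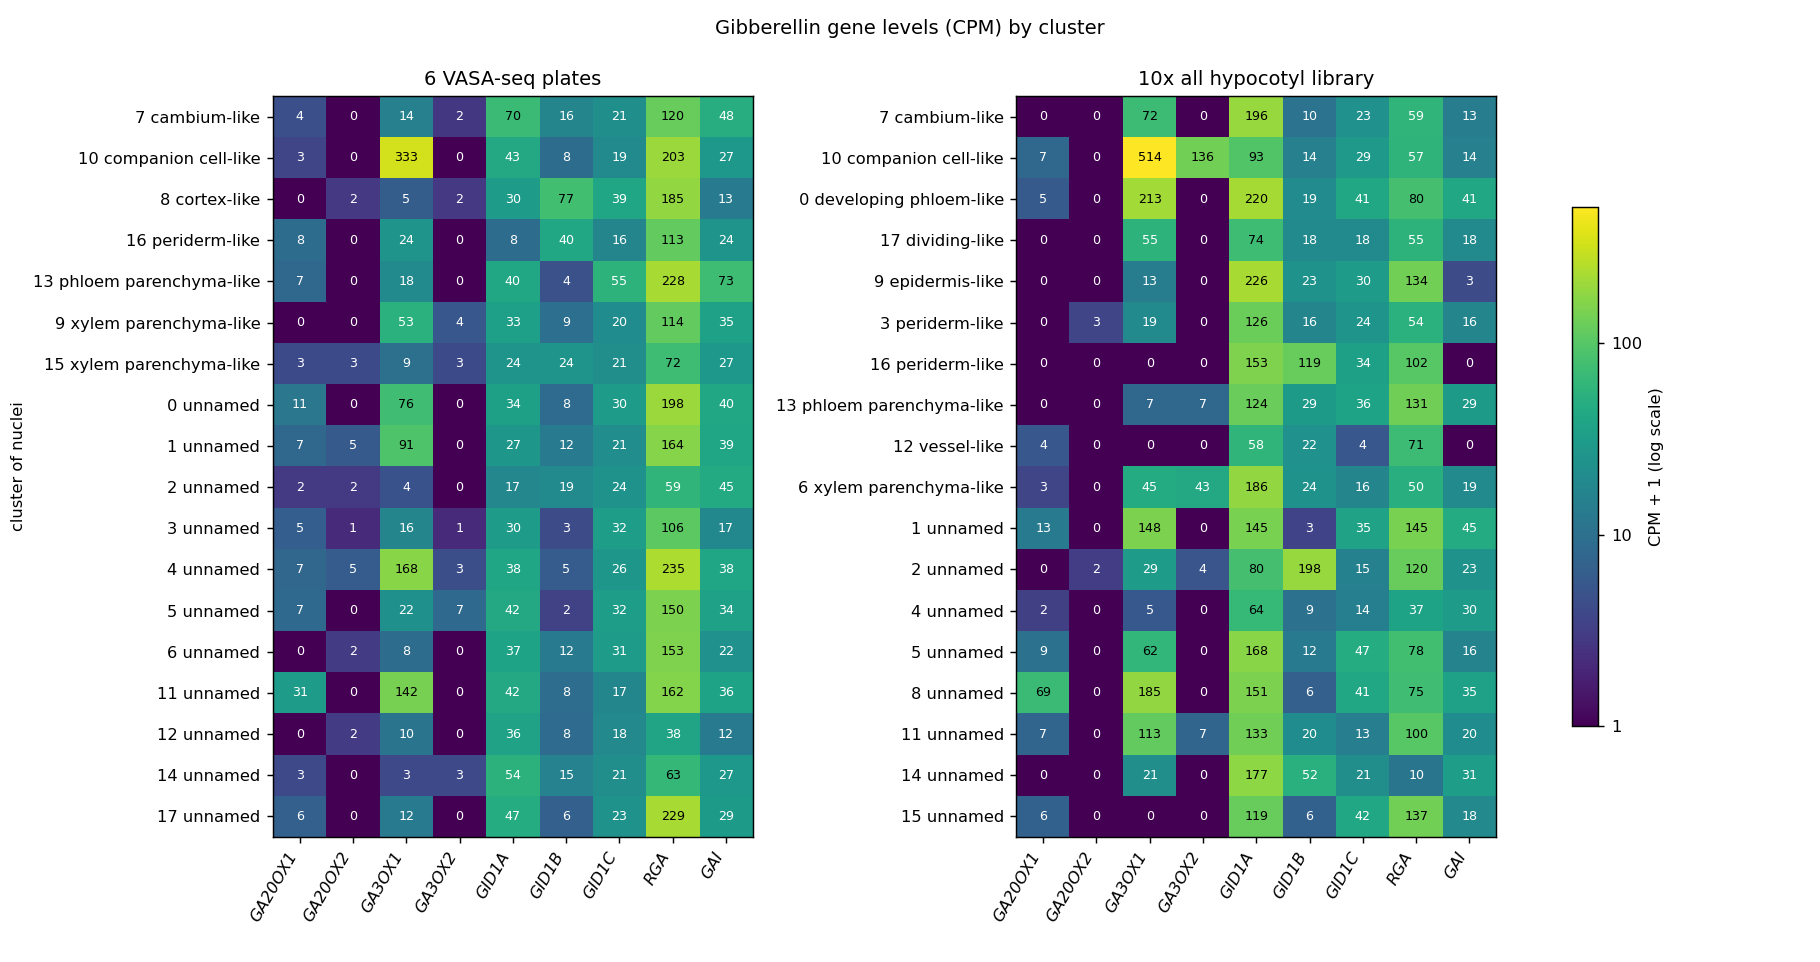
CPM (numbers, and colour on a log scale of CPM + 1) of the 9 genes in the clusters of the 6 VASA-seq plates and of the 10x all hypocotyl library, with the class of each cluster where it could be named from markers. GA3OX1 peaks in companion cell-like nuclei of both data sets (333 and 514 CPM), GID1B in VASA cluster 8 (77.1 CPM) and 10x cluster 2 (198 CPM), both with DOX1, LAC7 and DIN2 among their leading genes.

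Several clusters that could not be named carried synthesis genes. On the plates, cluster 4 had 168 CPM of GA3OX1, and cluster 11, led by BGLU18 and the AINTEGUMENTA family genes AIL6 and ANT, had 142 CPM of GA3OX1 and 30.7 CPM of GA20OX1 (11 of the 51 GA20OX1 counts). In the 10x all hypocotyl library cluster 8, led by the receptor-like gene RLP23, had 69.5 CPM of GA20OX1 (12 of 28 counts) and 185 CPM of GA3OX1. GA3OX2 was found in 15 of 2081 nuclei of that library. Companion cell-like nuclei held 19 of its 39 counts (136 CPM), of which 16 came from 1 nucleus, and xylem parenchyma-like nuclei held 16 counts (42.5 CPM) over 7 nuclei. On the plates companion cell-like nuclei had 0 GA3OX2 counts, with an upper limit of 8.00 CPM from 3 counts.

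GID1B had its highest level in like clusters of each data set. The cortex-like cluster 8 of the plates, led by genes such as the sulfate transporter gene SULTR1;2 and by DOX1, LAC7 and DIN2, held 43 of 137 GID1B counts in 87 nuclei (77.1 CPM, 95% Poisson interval 55.8 to 104), with 33.3% of its nuclei positive. It stood at 73.5 CPM in this cluster on cambium plates and 79.0 CPM on all hypocotyl plates. In the 10x all hypocotyl library the cluster with DOX1, LAC7 and DIN2 among its leading genes held 94 of 165 counts (198 CPM), against 2.5 to 119 CPM in the other clusters. In d14 and WT nuclei, clustered together, a cluster with DOX1, LAC7 and DIN2 among its leading genes held 15 counts (86.6 CPM), the highest of 15 clusters. These genes led clusters in which cortex markers were raised, though only the VASA cluster met the naming rule. Periderm-like nuclei had 40.3 CPM on the plates (5 counts) and 65.3 CPM in d14 and WT nuclei (5 counts). In the 10x all hypocotyl library the 217 periderm-like nuclei had 30.05 CPM (13 counts, 16 to 51.4), with 119 CPM in the 30 nuclei of cluster 16 (7 counts) and 16.1 CPM in the 187 nuclei of cluster 3 (6 counts).

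GID1A and GID1C were spread more evenly. On the plates GID1A ranged from 8.06 CPM in periderm-like nuclei (1 count) to 69.6 CPM in cambium-like nuclei (39 counts), and GID1C from 16.1 CPM in periderm-like nuclei to 55.1 CPM in phloem parenchyma-like nuclei (15 counts). Phloem parenchyma-like nuclei, led by glucosinolate genes such as BCAT4 and CYP79F1, also had high levels of RGA, 228 CPM, and the highest of GAI, 73.4 CPM (20 counts). RGA was lowest in cluster 12, led by IMK2, CSLD5 and the cytokinesis gene POK2, at 37.7 CPM (19 counts), and in cluster 2, led by defence genes such as PBS3, at 59.0 CPM.

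The genes closest in pattern to each of the 6 abundant genes over the 18 VASA clusters were sought among 13695 genes, by Pearson's r of log2(CPM + 10). Clusters share plates and depth, and r is given as a description. The genes named are the highest of those 13695 over only 18 clusters. How high r would reach by such selection alone was not computed, so shared expression is not shown. GID1B was closest to ABCB11 (0.90), AT5G23955 and ALIS5 (0.86 each), and RGA to ML3 and MEE51 (0.88 each) and ABCC2 (0.85). For GA3OX1 they were AT4G27450 (0.85), the metallothionein gene MT3 (0.82) and the receptor kinase gene XIP1 (0.78), and for GID1C CIPK15, AT5G25770 and CYP706A4 (0.82 each). The likeness was weaker for GID1A, with CDKC;1 at 0.79 and LIP1 and AT2G46915 at 0.77 each, and for GAI, with AT5G66050 at 0.75, AT5G39530 at 0.74 and AT1G73980 at 0.73.

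The d14 library was compared with the WT library to ask whether loss of the strigolactone receptor went with a change in the pathway. With 1 library per genotype no test between genotypes can be made, and intervals compare these libraries only. Summed over the pair of libraries, 16850 genes reached 20 counts, of which 1450 differed by 2-fold or more (8.61%), 740 higher (4.39%) and 710 lower (4.21%) in d14. Of the 9 genes, 7 had at least 20 counts and 0 passed 2-fold, with a median ratio of 0.819 against 1.00 over all genes. GA3OX1 had 67 counts (32.2 CPM) in d14 and 42 counts (24.8 CPM) in WT, a ratio of 1.30 (95% interval 0.872 to 1.96). Both levels were below that of free RNA, and nuclei of at least 2500 counts held 10 of the d14 counts and 7 of the WT counts, with a ratio of 1.09. GID1A had 223 counts (107 CPM) in d14 and 222 counts (131 CPM) in WT, a ratio of 0.819 (0.677 to 0.991), the only interval of the 7 that left out 1.

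RGA had 98 counts (47.1 CPM) in d14 and 76 counts (44.8 CPM) in WT, a ratio of 1.05 (0.771 to 1.44). GAI had 21 counts in each (10.1 CPM in d14 and 12.4 CPM in WT, ratio 0.815, 0.424 to 1.57), GID1B 37 in d14 and 40 in WT (ratio 0.754, 0.469 to 1.21) and GID1C 39 in d14 and 36 in WT (ratio 0.883, 0.547 to 1.43). GA20OX1 had 10 counts in each (ratio 0.815, 0.305 to 2.18), GA20OX2 0 in d14 and 1 in WT, and GA3OX2 3 in d14 and 0 in WT. The intervals of GAI and GA20OX1 reach past 2-fold, so such a change was not detectable at this depth. In cambium-like nuclei GA3OX1 had 23 counts in d14 (162 CPM, 103 to 243) and 6 in WT (69.9 CPM, 25.7 to 152), and in xylem parenchyma-like nuclei 7 in d14 (39.8 CPM, 16 to 82.0) and 11 in WT (98.7 CPM, 49.2 to 177), with overlapping intervals in both classes.

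Of the other pathway genes, 18 had at least 20 counts, of which 4 were lower in d14 by 2-fold or more and 0 were higher. Over all genes with 20 counts, 4.21% were lower and 4.39% higher. For 8 of the 18 the interval, which covers counting error only, left out 1. Markers of several cell types also differed between the libraries. The summed vessel markers stood at 797 CPM in d14 and 393 CPM in WT, phloem parenchyma markers at 5416 CPM in d14 and 3946 CPM in WT, cortex markers at 6525 CPM in d14 and 8111 CPM in WT, and periderm markers at 417 CPM in d14 and 639 CPM in WT. Vessel-like nuclei were 9.73% of passing nuclei in d14 and 3.22% in WT, and the part of this mix in single ratios was tested only by holding the clusters of nuclei at the mix of WT. The gibberellin-responsive gene GASA1 gave 7 counts in d14 and 34 in WT, a ratio of 0.168 (0.0628 to 0.385), and its relative GASA6 gave 23 in d14 and 55 in WT, a ratio of 0.341 (0.200 to 0.564). The transporter gene NPF3.1 gave 24 counts in d14 and 41 in WT (ratio 0.477, 0.276 to 0.809) and GA2OX1, whose product inactivates gibberellin, 8 in d14 and 16 in WT (ratio 0.408, 0.151 to 1.01). The third responsive gene with enough counts, GASA4, went the other way with 22 counts in d14 and 9 in WT, a ratio of 1.99 (0.882 to 4.92), just inside 2-fold, and 2.77 at a minimum of 1000 counts. All 4 genes were also present in free RNA, in which each was likewise lower in d14. In droplets of at most 100 counts GASA1 stood at 17.7 CPM in d14 and 32.2 CPM in WT, against 3.36 CPM in d14 nuclei and 20.0 CPM in WT nuclei. GASA6 stood there at 30.4 CPM in d14 and 35.6 CPM in WT, GA2OX1 at 12.7 CPM in d14 and 34.8 CPM in WT, and NPF3.1 at 5.06 CPM in d14 and 23.8 CPM in WT. The few counts of these genes were not told apart from free RNA. GASA1 stayed past 2-fold in each of 5 settings (0.168 to 0.302), while GASA6 was within it at the minimum of 2500 counts (0.652), in every barcode of at least 500 counts (0.651) and with the cluster mix held at that of WT (0.529). NPF3.1 was within it at the minimum of 2500 counts (0.936).

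**Figure D5:**
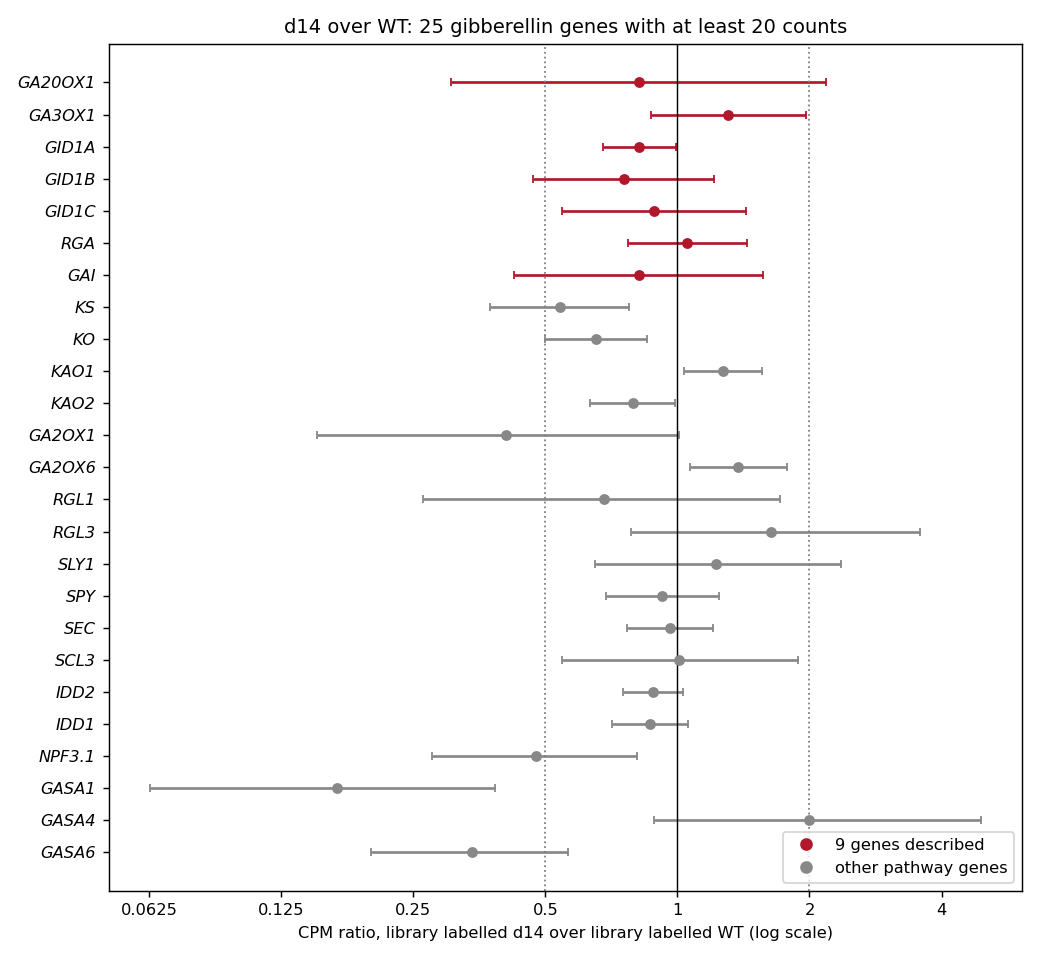
CPM ratios of the library labelled d14 over the library labelled WT (x axis, log scale) with 95% intervals for counting error, for the 25 gibberellin genes with at least 20 counts (y axis). Dotted lines mark 2-fold either way, red the genes described and grey the other pathway genes. The 7 described genes lie between 0.754 and 1.30, and GASA1, GASA6, GA2OX1 and NPF3.1 lie below the lower dotted line.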

How the data were processed

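Counts per gene and barcode or well were used as the authors deposited them, raw and whole. Per the labels and the study's methods, the authors aligned reads to TAIR10, with STAR 2.7.8a (STARsolo, introns included) and the reporter sequences added for the plates and the 10x all hypocotyl library, and with Cell Ranger 6.0.1, introns included, to the nuclear genome for WT and d14. Whether counting used strand is not given in the sources used here. Nuclei passed at over 1200 and under 10000 counts (10x all hypocotyl), over 1200 and under 15000 (plates) or over 1500 and under 15000 (WT and d14). The limit of 20% mitochondrial counts removed 0 nuclei, and no organelle gene was listed for WT and d14. The study's fluorescence limit on the plates was not applied, and doublets were kept. The 10x all hypocotyl and WT libraries shared 1 barcode of passing nuclei, d14 barcodes could not be matched, and plates share well barcodes by design. CPM is scaled to the summed counts of passing nuclei, and per kb is per gene span in TAIR10.1.

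Counts were summed per plate, or per plate and reporter side, and tested with edgeR 4.0.16 (R 4.3.3; TMM, filterByExpr, glmQLFTest, Benjamini-Hochberg over all genes tested), tested on simulated data with 200 changed genes. DESeq2 1.42.0, other filters, limits, blocks and left-out plates were alternatives. d14 and WT were compared by CPM ratio with a Clopper-Pearson interval, with at least 20 counts and 2-fold as limits. Clusters came from Seurat 5.3.0 with the 9 genes and the pathway list left out of the variable genes. They were named "-like" where at least 3 markers were raised, the summed fold was at least 2, and no other class had both a larger summed fold and a larger share of raised markers. No other class could have more markers among the leading genes. A class with none there also needed a set share of its markers raised and a minimum depth of its nuclei. That rule was completed after the marker scores were seen, and 1151 of 1588 plate nuclei stayed unnamed. All 9 genes are named in every comparison, and pathway genes if called, past 2-fold or highest of their role. The genes, lists and markers were chosen with earlier results of these data known. IDD1 in the gates and GASA4 in d14 were named after their values were seen.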

Additional observations from a re-analysis of the deposited data

Results flagged for a closer look

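The 36 wells that had received no nucleus, 6 on each plate, are outside every comparison above and held 5 counts of the 9 genes (GID1A 2, RGA 2 and GA3OX1 1) among 10057 counts. In 11 sets of 6 per-plate differences (sides and classes), no plate stood apart by Dixon's limit, where chance would single out about 1 in 20.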

How the results depend on the processing

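Between the gates, the 505 called genes became 427 without TMM, 433 with DESeq2, 1291 without a filter on low counts, 443 with nuclei of over 2500 counts and 619 with all wells, and 231 to 355 with 1 plate left out. The fit with the replicate number as a block called 566, although deviations of same-numbered plates correlated at only 0.134, -0.032 and 0.074, so that the numbers do not pair the plates, and no gene of the 9 changed its call under it. RGA, at 0.13 (log2), ranged from -0.0096 (without all hypocotyl plate 2) to 0.31 with 1 plate left out. Between the reporter sides, 389 called genes became 219 with DESeq2, 652 without a filter, 218 with no replicate block, 260 with at least 2 reporter counts, 118 on cambium plates only, 105 on all hypocotyl plates only and 226 to 396 with 1 plate left out. GAI, at 0.14 (log2), turned to -0.40 on cambium plates only and ranged from -0.17 (without all hypocotyl plate 1) to 0.50 with 1 plate left out. The cause was not tested, apart from the fewer plates of the fits on part of them.

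At higher minimum counts per nucleus the levels of GA3OX1 fell to 9.71 CPM in d14, 8.95 CPM in WT and 50.1 CPM in the 10x all hypocotyl library. The d14 to WT ratio of GAI was 1.98 at a minimum of 2500 counts, on 18 counts over both libraries. Of the 9 genes, GA20OX1, GA20OX2 and GA3OX2 did not pass the filter between the gates.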

Other observations

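Some pathway genes that did not pass the filter of the gate test had different counts in the gates, and they are given as values chosen after the data were seen. EXPA8, a gene of a cell wall expansin, gave 1 count over the 3 cambium plates and 11 over the 3 all hypocotyl plates. The gibberellin-responsive genes GASA1, GASA4 and GASA6 gave 10, 9 and 13 counts over the cambium plates, against 21, 37 and 24 over the all hypocotyl plates. By plate, GASA1 was at 0.58 to 2.74 CPM on cambium plates and 3.48 to 5.62 CPM on all hypocotyl plates. GASA4 was at 0.58 to 2.73 CPM on cambium plates and 3.48 to 15.5 CPM on all hypocotyl plates. GASA6 overlapped, at 0 to 6.04 CPM on cambium plates and 4.92 to 6.96 CPM on all hypocotyl plates. The GA 2-oxidase gene GA2OX7, which acts on precursors of the hormone, had 20 counts (3.29 to 4.78 CPM per plate) in cambium-gated nuclei, against 7 counts (0 to 2.81 CPM) in ungated ones. These differences were not tested.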
